A study of Homo sapiens with 12 samples.

Results

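TGF-beta and activin signalling was described through 10 genes, TGFB1, TGFB2, INHBA, TGFBR1, TGFBR2, SMAD3, SMAD7, FST, TGFBI and THBS1, each taken by its symbol from a table of 58735 genes. The cells were N/TERT-2G, an immortalized line of human skin keratinocytes, so all groups share 1 line and none is patient tissue. The series title names vulvar lichen sclerosus, a chronic inflammatory skin disease. In a 6-well plate, each well received 100 pmol of siRNA with 5 μl of a lipid transfection reagent, and the medium was replaced after 6 h. The siRNA was directed at ATF3, a transcription factor of the stress response, at the lipid carrier APOE or at the chemokine CXCL14, or was a negative control. Each of the 4 groups had 3 libraries, numbered 1 to 3, of poly(A) RNA. The labels do not say whether the libraries came from separate cultures, so p-values cover only the variation among these 12 libraries, which may be technical. The labels give neither the siRNA sequences nor the time of harvest.

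TGF-beta and activin are secreted ligands that bring type II and type I receptors together on the cell surface, and the activated type I receptor phosphorylates SMAD2 and SMAD3, which enter the nucleus with SMAD4 and regulate genes. SMAD7 is an inhibitory Smad induced by the pathway that blocks the receptor, and follistatin (FST) binds activin outside the cell. In the epidermis TGF-beta restrains keratinocyte growth and activin A, the dimer of the INHBA product, rises during wound repair. TGF-beta is secreted in a latent complex and has to be released before it can act.

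Total counts ranged from 16225691 to 22246755 per library. Levels are CPM (each library's counts set against its total and scaled by edgeR's TMM factors), and 3 counts corresponded to 0.136 to 0.191 CPM. A gene was called changed at a Benjamini-Hochberg adjusted p under 0.05 in edgeR's quasi-likelihood test, with adjustment over the 14920 genes that passed the filter on low counts, and all 10 genes passed it. The targets matched their labels: ATF3 was at 40.5 to 43.0 CPM in control and 11.5 to 12.5 CPM with its siRNA, and APOE at 2.78 to 3.59 and 0.106 to 0.274 CPM. CXCL14 was at 0.365 to 0.682 CPM in control and 0 to 0.0545 CPM with its siRNA, below the level of 3 counts. Its match rests on few reads, 7, 6 and 11 counts in control against 1, 1 and 0. CXCL14 was at 0.230, 0.956 and 1.27 CPM with ATF3 siRNA, the first below every control library, and at 4.27 to 12.3 CPM with APOE siRNA. With CXCL14 siRNA, ATF3 was at 64.1 to 71.6 CPM and APOE at 5.48 to 6.37 CPM, each above every control library. Basal keratinocyte markers summed to 27608 to 30754 CPM in control, 29499 to 32041 with ATF3 siRNA, 36918 to 39542 with APOE siRNA and 19643 to 20486 with CXCL14 siRNA. Differentiation markers summed to 83.1 to 108 CPM in control, 239 to 331 with ATF3 siRNA, 278 to 344 with APOE siRNA and 68.3 to 76.2 with CXCL14 siRNA, and the part of these shifts in the results below was not tested.

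The start-site windows of INHBA, TGFBI and THBS1 are shown because these genes had the largest fold changes against control among the 10. Each runs from 250 bases before to 50 bases after the annotated start, from RefSeq on GRCh38.p14, and all 10 genes matched an entry. Capitals mark matches, on either strand, to the SMAD box core CAGAC, the AP-1 motif TGANTCA or TGANGTCA, a pattern that takes in the cyclic AMP response element (CRE), which ATF3 and related factors can bind, and single-base variants of it (CRE-like).
INHBA, chr7:41703041-41703340, minus strand: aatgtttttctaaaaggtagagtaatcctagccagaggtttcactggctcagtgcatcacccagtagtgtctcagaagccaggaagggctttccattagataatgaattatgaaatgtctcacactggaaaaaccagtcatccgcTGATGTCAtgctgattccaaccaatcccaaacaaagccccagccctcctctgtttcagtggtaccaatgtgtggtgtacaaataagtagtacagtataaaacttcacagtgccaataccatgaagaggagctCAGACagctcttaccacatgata
TGFBI, chr5:136028738-136029037, plus strand: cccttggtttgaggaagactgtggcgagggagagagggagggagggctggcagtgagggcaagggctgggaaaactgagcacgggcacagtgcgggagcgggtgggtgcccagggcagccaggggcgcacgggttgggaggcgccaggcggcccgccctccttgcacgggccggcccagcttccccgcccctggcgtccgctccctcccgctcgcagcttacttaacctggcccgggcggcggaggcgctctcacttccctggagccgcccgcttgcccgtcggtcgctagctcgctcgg
THBS1, chr15:39580829-39581128, plus strand: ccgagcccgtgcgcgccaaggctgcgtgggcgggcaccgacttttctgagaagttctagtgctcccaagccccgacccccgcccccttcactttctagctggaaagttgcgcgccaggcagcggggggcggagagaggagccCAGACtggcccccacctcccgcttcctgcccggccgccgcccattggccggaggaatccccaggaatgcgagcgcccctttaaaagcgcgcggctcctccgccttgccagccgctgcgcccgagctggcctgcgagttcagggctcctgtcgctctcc
The INHBA window held a CRE-like match at -105 to -98, counting the start as 0, and a SMAD box core at 27 to 31. THBS1 held a SMAD box core at -108 to -104, and none of the 3 motifs was in the TGFBI window. Over the 10 genes, 6 windows held CAGAC (TGFB2, INHBA, TGFBR1, SMAD3, SMAD7 and THBS1), against 45.3% of 35116 RefSeq windows of this length. TGANTCA was in the windows of TGFBR2 and FST, 2 of 10 against 7.71%, and TGANGTCA in that of INHBA alone, 1 of 10 against 7.72%. A match describes letters, not a bound site, and the INHBA window lies 2744 bases from the 5′ end of the gene in the deposited annotation. The INHBA window was 43.3% G or C, against 72.7% for TGFBI, 70% for THBS1 and a median of 58.7% over all windows.

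With CXCL14 siRNA the pathway's genes were mostly lower than in control: INHBA fell to 12.7% of control, TGFB1 to 46.9% and both receptors to 64.0% and 67.0%, while TGFB2 rose to 245%. In all, 9 of the 10 genes were called, 8 lower and 1 higher, where 55.8% of all tested genes were called (27.4% higher, 28.4% lower). The median log2 fold change of the 10 genes was -0.55, against 0.01 over all tested genes. With APOE siRNA 6 genes were called, 5 higher (TGFB2, TGFBR2, SMAD7, FST and TGFBI) and 1 lower (THBS1), where 44.8% of all genes were called. With ATF3 siRNA 6 genes were called, 4 higher (TGFB2, TGFBR1, TGFBR2 and THBS1) and 2 lower (INHBA and SMAD3), where 20.4% of all genes were called. The medians of the 10 genes were 0.27 with APOE siRNA and 0.10 with ATF3 siRNA. The background by direction was 22.3% higher and 22.5% lower with APOE siRNA, and 11.2% higher and 9.14% lower with ATF3 siRNA. The 10 genes and the lists below were chosen with earlier results of these data known. Counts set beside the share of all genes are therefore descriptions.

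Called changes of at least 2-fold were seen in 3 of the 10 genes with CXCL14 siRNA (INHBA, TGFB1 and TGFB2; 14.5% of all genes), 2 with APOE siRNA (TGFBI and THBS1; 8.06%) and 0 with ATF3 siRNA (1.84%; 6 of the 10 genes were called at any size by edgeR). Libraries did not overlap those of control in 9 of the 10 genes with CXCL14 siRNA (62.1% of all genes), 6 with APOE siRNA (54.4%) and 7 with ATF3 siRNA (35.2%). TGFB2, TGFBR2 and THBS1 were called with all 3 siRNAs, and the 3 comparisons share the control libraries. The share of all genes called with all 3 was not computed, so this count is not read as particular to the 10 genes. In a bulk sample, fewer cells of a type and less RNA per cell cannot be told apart.

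**Figure D1:**
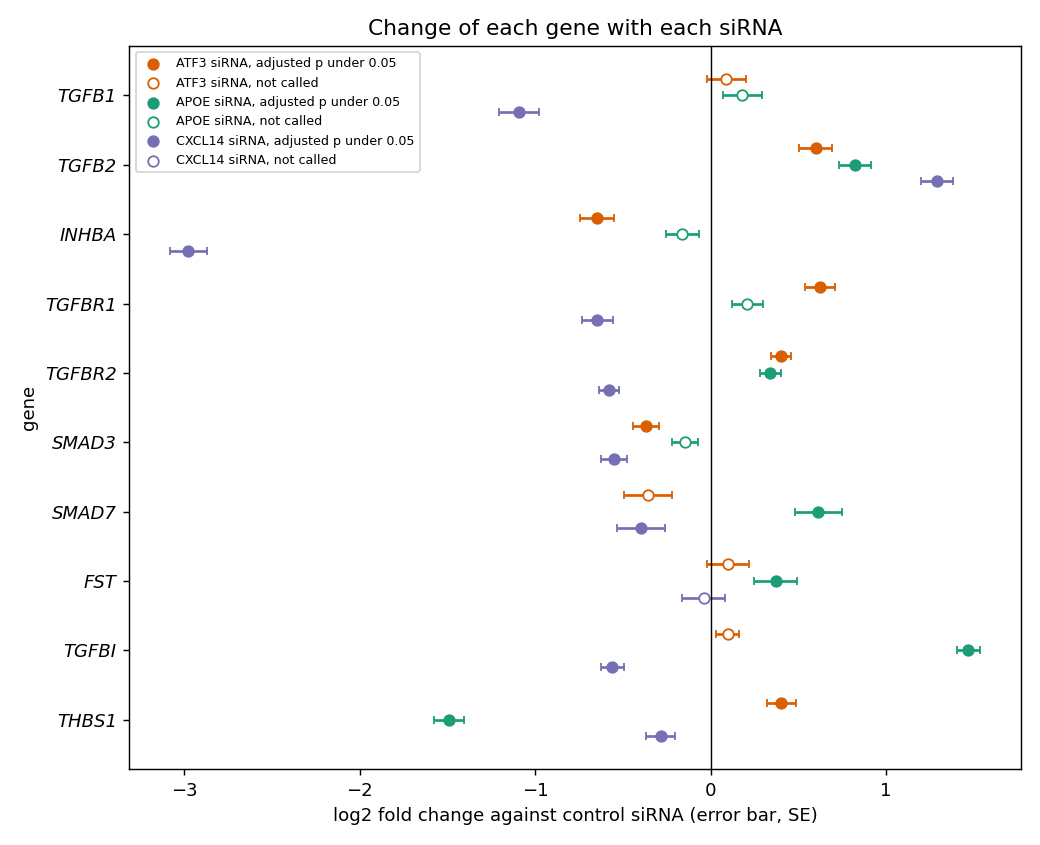
Log2 fold change against control siRNA (horizontal axis; error bar, SE) of each of the 10 genes (vertical axis), coloured by siRNA, with filled points for adjusted p under 0.05 in edgeR's test. INHBA with CXCL14 siRNA lies farthest left at -2.97, TGFBI with APOE siRNA farthest right at 1.47, and the TGFB2 points lie to the right of 0 with each siRNA.

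INHBA encodes the activin A subunit, and its level was lowest with CXCL14 siRNA. Control libraries had 317, 279 and 256 CPM of INHBA, whereas those with CXCL14 siRNA had 37.5, 37.0 and 33.9 CPM. The ATF3 siRNA libraries had 211, 169 and 164 CPM, and the APOE siRNA libraries 245, 275 and 241 CPM. Every library with CXCL14 or ATF3 siRNA was thus below every control library, whereas the APOE siRNA libraries overlapped the controls. The fitted change was -2.97 ± 0.11 (log2, SE; adjusted p = 4.2e-12 by edgeR) with CXCL14 siRNA, and 33 of the 14920 tested genes (0.221%) fell further. It was -0.65 ± 0.10 (adjusted p = 0.000212) with ATF3 siRNA, and -0.16 ± 0.10 with APOE siRNA did not pass the test (adjusted p = 0.189). The antisense gene INHBA-AS1 had 1 to 25 counts per library and shares no exon bases with INHBA in GENCODE release 29.

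TGFB1 and TGFB2, ligands that act through the same receptors, moved in opposite directions with CXCL14 siRNA. TGFB1 was at 115, 116 and 142 CPM in control, and at 52.9, 57.4 and 64.7 CPM with CXCL14 siRNA. TGFB2 was at 12.9, 12.2 and 11.0 CPM in control, and at 30.0, 28.1 and 30.1 CPM with CXCL14 siRNA. Neither gene's CXCL14 siRNA libraries overlapped its controls. The log2 fold changes were -1.09 ± 0.11 for TGFB1 (adjusted p = 5.71e-07) and 1.29 ± 0.09 for TGFB2 (adjusted p = 5.35e-09). TGFB2 was also above every control library with ATF3 siRNA, at 19.8, 17.7 and 17.0 CPM, and with APOE siRNA, at 20.8, 22.3 and 20.6 CPM. Those rises were 0.60 ± 0.09 (adjusted p = 0.000292) and 0.82 ± 0.09 (adjusted p = 2.45e-06). TGFB1 overlapped the controls with both of these siRNAs. It was at 115, 130 and 152 CPM with ATF3 siRNA and 131, 133 and 158 CPM with APOE siRNA. Neither difference passed the test (adjusted p = 0.623 and 0.206). With the replicate number as a block in edgeR, the TGFB1 value with APOE siRNA was 0.18 and called (adjusted p = 0.00747).

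Part of the TGFB1 exon sequence, 215 of 3238 bases (6.64%), lies opposite exons of HNRNPUL1. HNRNPUL1 was likewise lower with CXCL14 siRNA, at 168 to 179 CPM against 291 to 309 in control and 275 to 314 in the other 2 groups. Whether the libraries kept strand and whether counting used it is unknown, so reads from the shared bases cannot be told apart. TGFB2-OT1 covers 1371 of 5151 TGFB2 bases (26.6%) on the same strand and had 0 counts in all 12 libraries. How reads lying in both genes were counted is not given. Whether TGFB2 lost reads there is thus unknown, and its level per length may be understated.

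**Figure D2:**
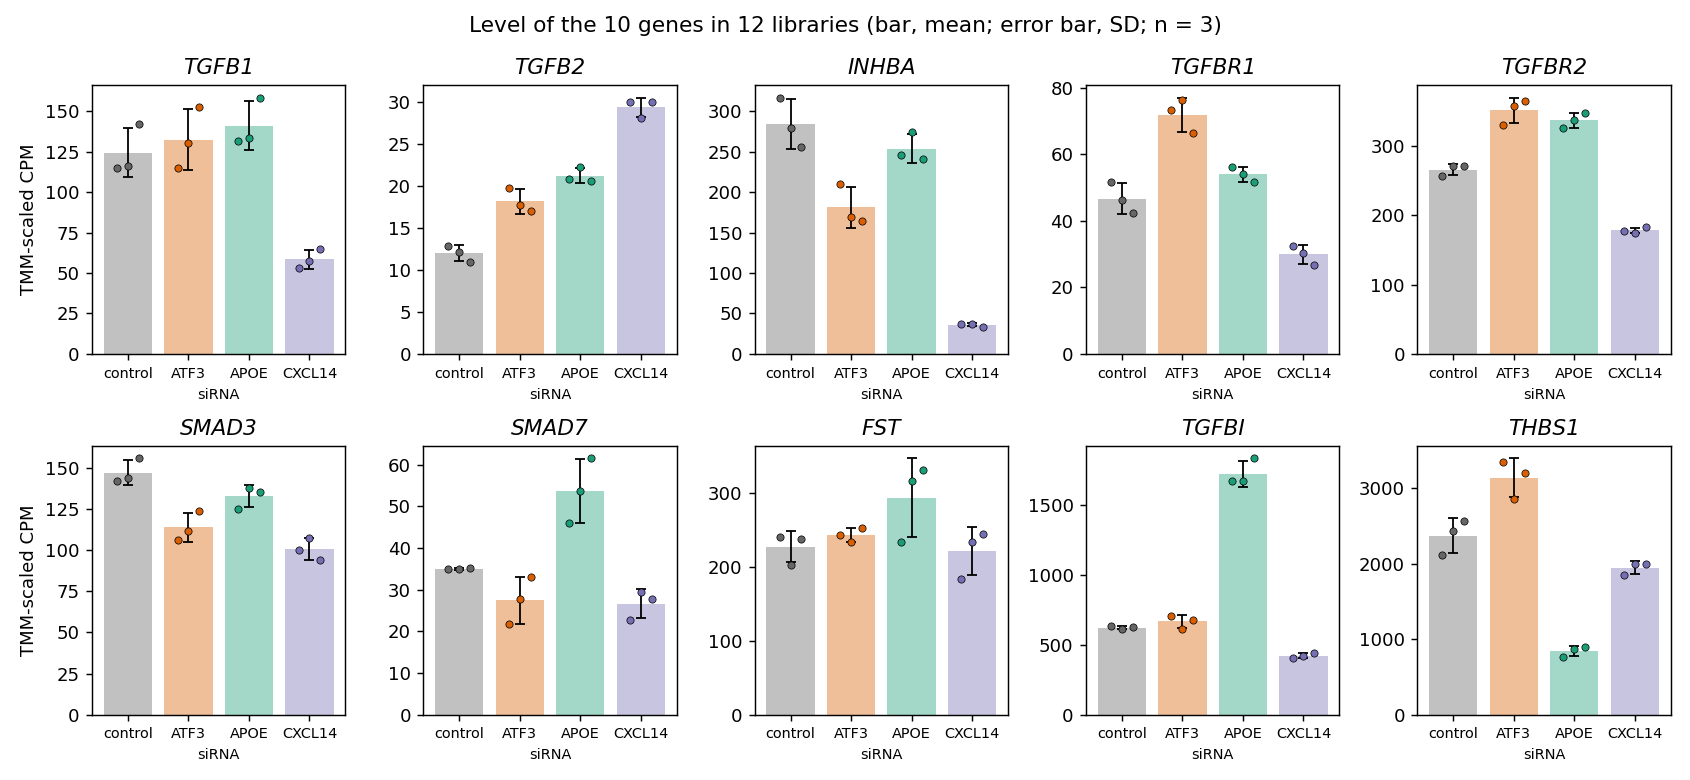
TMM-scaled CPM (vertical axis, starting at 0) of the 10 genes in the 4 siRNA groups (horizontal axis), with a point per library, the mean as a bar and the SD over 3 libraries as an error bar. INHBA, TGFB1 and both receptor genes are lowest with CXCL14 siRNA, TGFB2 is highest there, and TGFBI and THBS1 stand apart with APOE siRNA.

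The receptor genes TGFBR1 (type I) and TGFBR2 (type II) were both higher than control with ATF3 siRNA and both lower with CXCL14 siRNA. TGFBR1 was at 51.7, 46.1 and 42.3 CPM in control, 73.2, 76.2 and 66.3 CPM with ATF3 siRNA, 56.3, 54.0 and 51.6 CPM with APOE siRNA, and 32.4, 30.5 and 26.9 CPM with CXCL14 siRNA. TGFBR2 was at 257, 271 and 271 CPM in control, 331, 359 and 365 CPM with ATF3 siRNA, 326, 338 and 347 CPM with APOE siRNA, and 177, 175 and 183 CPM with CXCL14 siRNA. The groups did not overlap control in any of these comparisons except TGFBR1 with APOE siRNA. TGFBR1 changed by 0.62 ± 0.09 with ATF3 siRNA (adjusted p = 0.000112) and by -0.64 ± 0.09 with CXCL14 siRNA (adjusted p = 1.39e-05). TGFBR2 changed by 0.40 ± 0.06 (adjusted p = 0.000172), 0.34 ± 0.06 (adjusted p = 0.000178) and -0.58 ± 0.06 (adjusted p = 4.09e-07) with ATF3, APOE and CXCL14 siRNA. The TGFBR1 value with APOE siRNA, 0.21 ± 0.09, did not pass the test (adjusted p = 0.064), but at 0.29 without control replicate 1 it did (adjusted p = 0.0224). It was also called with the replicate number as a block in edgeR (adjusted p = 0.00855).

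SMAD3 carries the signal of both TGF-beta and activin receptors to the nucleus. Its level was 142, 144 and 156 CPM in control, 106, 112 and 124 CPM with ATF3 siRNA, 125, 138 and 136 CPM with APOE siRNA, and 99.8, 108 and 94.1 CPM with CXCL14 siRNA. Every knockdown library was below every control library. SMAD3 fell by 0.37 ± 0.07 on the log2 scale with ATF3 siRNA (adjusted p = 0.0022) and by 0.55 ± 0.07 with CXCL14 siRNA (adjusted p = 9.16e-06). With APOE siRNA the difference was -0.15 ± 0.07 and did not pass the test (adjusted p = 0.115). Scaled by library size alone in edgeR, it was -0.21 and called (adjusted p = 0.0238).

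Of the inhibitors, SMAD7 was higher with APOE siRNA and FST changed little beside the spread of its libraries. SMAD7 was at 34.8, 35.0 and 35.2 CPM in control and at 45.9, 53.6 and 61.4 CPM with APOE siRNA, a rise of 0.61 ± 0.13 (adjusted p = 0.00137). The ATF3 siRNA libraries had 21.6, 27.7 and 33.0 CPM and the CXCL14 siRNA libraries 22.7, 29.5 and 27.7 CPM, all below the controls. SMAD7's SD was 5.69 CPM with ATF3 siRNA against 0.193 CPM in control (n = 3 each). The control counts of 576, 575 and 568 lay closer together than counting noise gives on average. The control SD is therefore no measure of the usual spread. The fall with CXCL14 siRNA was -0.39 ± 0.14 (adjusted p = 0.0217), and without CXCL14 siRNA replicate 1 it was -0.29 and no longer called (adjusted p = 0.101). With ATF3 siRNA the value of -0.36 ± 0.14 was not called (adjusted p = 0.0779), and without ATF3 siRNA replicate 3 it was -0.51 and called (adjusted p = 0.0171). With all libraries kept, the ATF3 siRNA value was also called when scaled by library size alone (adjusted p = 0.043), without the filter (0.0018), by DESeq2 (0.0449) and with a replicate block (0.00597), so its call depended on the processing. FST stood at 241, 203 and 239 CPM in control, 243, 234 and 253 CPM with ATF3 siRNA, 234, 317 and 332 CPM with APOE siRNA, and 184, 234 and 245 CPM with CXCL14 siRNA. Replicate 1 of the APOE siRNA group lay within the control range. The FST rise with APOE siRNA was 0.37 ± 0.12 (adjusted p = 0.0196), and the call was lost without control replicate 2 (adjusted p = 0.101), APOE siRNA replicate 2 (0.0838) or APOE siRNA replicate 3 (0.0989). The values with ATF3 siRNA (0.10 ± 0.12) and CXCL14 siRNA (-0.04 ± 0.12, of the other sign when scaled by library size alone) did not pass the test.

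TGFBI and THBS1 encode secreted matrix proteins. TGFBI is a cell-adhesion protein first known as a gene induced by TGF-beta, and thrombospondin 1, the product of THBS1, can release TGF-beta from its latent complex. They moved in opposite directions with APOE siRNA. TGFBI was at 632, 611 and 627 CPM in control, 706, 616 and 679 CPM with ATF3 siRNA, 1673, 1669 and 1834 CPM with APOE siRNA, and 404, 422 and 444 CPM with CXCL14 siRNA. THBS1 was at 2118, 2436 and 2559 CPM in control, 3350, 2856 and 3205 CPM with ATF3 siRNA, 769, 868 and 895 CPM with APOE siRNA, and 1842, 1999 and 1998 CPM with CXCL14 siRNA. Only TGFBI with ATF3 siRNA overlapped its controls. TGFBI rose by 1.47 ± 0.07 with APOE siRNA (adjusted p = 1.56e-10), to 277% of control, and 258 genes (1.73%) rose further. THBS1 changed by -1.49 ± 0.08 (adjusted p = 1.5e-09), to 35.6% of control, and 243 genes (1.63%) fell further.

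With CXCL14 siRNA both matrix genes were lower, TGFBI by -0.56 ± 0.07 (adjusted p = 2.12e-06) and THBS1 by -0.28 ± 0.08 (adjusted p = 0.00767). With ATF3 siRNA THBS1 rose by 0.40 ± 0.08 (adjusted p = 0.00266), and TGFBI at 0.10 ± 0.07 did not pass the test (adjusted p = 0.322). FSIP1, on the strand opposite THBS1 with 448 shared exon bases, had 4 to 17 counts per library. Fibroblast markers summed to 74.3 to 87.9 CPM with APOE siRNA, against 25.4 to 34.2 in control, 32.6 to 40.8 with ATF3 siRNA and 14.6 to 17.8 with CXCL14 siRNA. That sum was mostly COL1A1 (80.4 ± 6.84 CPM with APOE siRNA, 28.8 ± 4.61 in control; SD, n = 3), and only 2 of the 7 markers were tested. COL3A1 was at 0 in all control, ATF3 siRNA and APOE siRNA libraries, and COL1A2 reached at most 0.0638 CPM with APOE siRNA.

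The siRNA groups were also compared with each other. Between APOE and CXCL14 siRNA all 10 genes were called, 8 higher and 2 lower with APOE siRNA, where 55.5% of all genes were called (28.9% higher, 26.6% lower). The change was at least 2-fold in 5 of them (14.8% of all genes), and libraries did not overlap in 9 (61.8%). The largest differences were in INHBA, 2.81 ± 0.11 (adjusted p = 5.23e-12), and TGFBI, 2.03 ± 0.07 (adjusted p = 2e-12). The activin subunit and the TGF-beta-induced matrix protein thus separated these groups most. SMAD7 differed by 1.01 ± 0.13 (adjusted p = 8.12e-06), and TGFB2 (-0.47 ± 0.09) and THBS1 (-1.21 ± 0.08) were the genes lower with APOE siRNA. FST differed by 0.41 ± 0.12 (adjusted p = 0.00836), with overlapping libraries, and without CXCL14 siRNA replicate 1 it missed the threshold (adjusted p = 0.0503).

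Between ATF3 and CXCL14 siRNA 8 genes were called, 7 higher and 1 lower with ATF3 siRNA, where 53.7% of all genes were called (28.4% higher, 25.3% lower). The change was at least 2-fold in 3 of them (13.7% of all genes), and libraries did not overlap in 7 of the 10 (58.4%). INHBA was higher with ATF3 siRNA by 2.33 ± 0.10, TGFBR1 by 1.27 ± 0.09 and TGFB1 by 1.18 ± 0.11, and TGFB2 differed by -0.69 ± 0.09. SMAD3 was called at 0.18 ± 0.07 (adjusted p = 0.0482), with overlapping libraries, and this call was lost in 15 of 22 other settings, with adjusted p up to 0.375. SMAD7 (0.04 ± 0.14) and FST (0.14 ± 0.12) did not pass the test.

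Between ATF3 and APOE siRNA 6 genes were called, 2 higher and 4 lower with ATF3 siRNA, where 38.2% of all genes were called (20.3% higher, 17.9% lower). The change was at least 2-fold in 2 of them, THBS1 and TGFBI (6.06% of all genes), and libraries did not overlap in 7 of the 10 (46.9%). THBS1 was higher with ATF3 siRNA by 1.89 ± 0.09 (adjusted p = 2.36e-10) and TGFBR1 by 0.41 ± 0.09 (adjusted p = 0.00112). The matrix genes again moved apart, THBS1 being higher and TGFBI lower with ATF3 siRNA. TGFBI differed by -1.37 ± 0.07, SMAD7 by -0.97 ± 0.13, INHBA by -0.49 ± 0.10 and SMAD3 by -0.22 ± 0.07. The SMAD3 call (adjusted p = 0.0252) was lost when APOE siRNA replicate 2 or 3 or ATF3 siRNA replicate 1 or 2 was left out, with adjusted p of 0.0894, 0.065, 0.11 and 0.0749. TGFB2, with all ATF3 siRNA libraries below those with APOE siRNA, missed the threshold (-0.22 ± 0.09, adjusted p = 0.0557) and passed it without ATF3 siRNA replicate 1 (adjusted p = 0.0335). It also passed in edgeR with a stricter filter (adjusted p = 0.0369) or a replicate block (adjusted p = 0.0383). FST, with overlapping libraries, was not called (-0.27 ± 0.12, adjusted p = 0.0863) and was called in 3 of 22 other settings.

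Levels of different genes were set side by side per length, as the deposited FPKM (fragments scaled by gene length and library size). In control libraries THBS1 was highest at 255 ± 23.7 FPKM (SD, n = 3), followed by TGFBI at 78.8 ± 1.39 and FST at 75.6 ± 6.86, whose libraries overlapped. Both matrix genes and the activin antagonist were thus the most abundant of the 10 per length. TGFBR2 was next at 55.9 ± 1.64, ahead of TGFB1 at 37.9 ± 4.46 and INHBA at 33.8 ± 3.78, which overlapped each other. SMAD3 stood at 15.9 ± 0.747, SMAD7 at 6.86 ± 0.0134 and TGFBR1 at 6.74 ± 0.707, the last 2 overlapping. TGFB2 was lowest at 2.30 ± 0.194.

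The order differed from control with each siRNA. With APOE siRNA TGFBI was first at 216 ± 11.4 FPKM, above FST at 96.8 ± 17.2 and THBS1 at 90.0 ± 6.77, which overlapped. With CXCL14 siRNA INHBA was last at 4.30 ± 0.235 FPKM, overlapping TGFBR1 at 4.32 ± 0.409, and TGFB2 was seventh at 5.64 ± 0.230, overlapping SMAD7 at 5.23 ± 0.685. FST, at 73.7 ± 10.7, stood above TGFBI, at 53.5 ± 2.5, without overlap in that group. The order with ATF3 siRNA was that of control except that TGFBR1 stood above SMAD7.

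**Figure D3:**
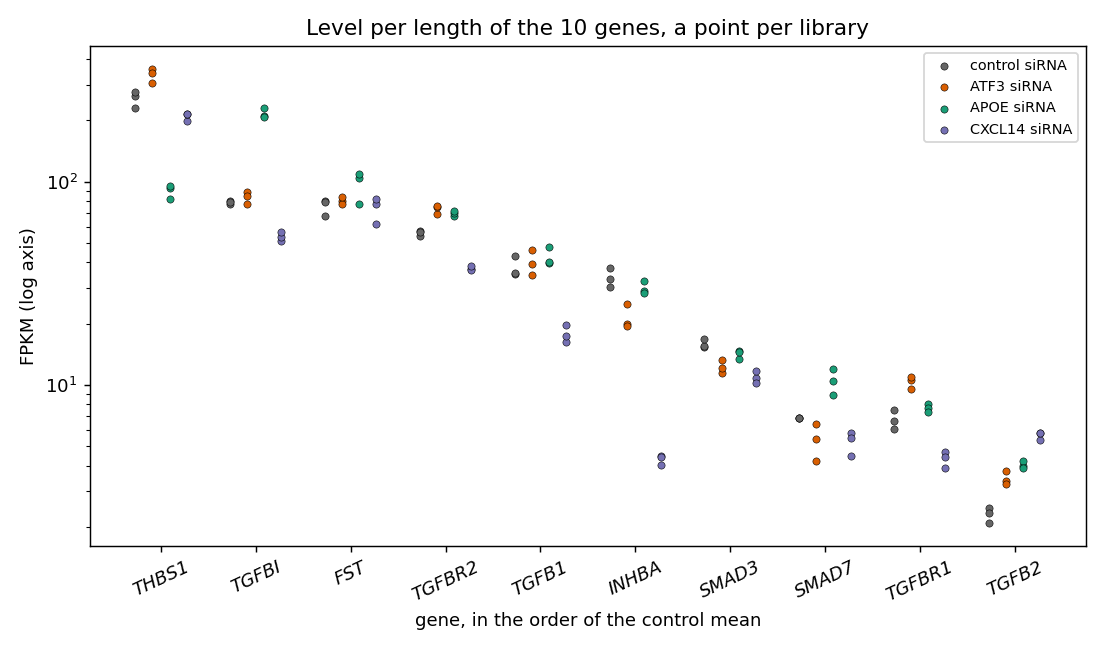
Deposited FPKM on a log axis (vertical) for the 10 genes in the order of their control means (horizontal), with a point per library coloured by siRNA. THBS1 with APOE siRNA drops below TGFBI, and INHBA with CXCL14 siRNA drops to the level of TGFBR1.

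Ratios within a library compare a ligand with its antagonist or with its paralogue. INHBA over FST was 0.448 ± 0.0574 in control (SD, n = 3), 0.266 ± 0.0396 with ATF3 siRNA, 0.315 ± 0.0581 with APOE siRNA and 0.0596 ± 0.0120 with CXCL14 siRNA. In each knockdown group every ratio was below every control ratio, the highest being 0.376 with APOE siRNA against a lowest control ratio of 0.383. TGFB2 over TGFB1 was 0.0616 ± 0.0115 in control, 0.0880 ± 0.0192 with ATF3 siRNA, 0.0956 ± 0.0122 with APOE siRNA and 0.319 ± 0.0338 with CXCL14 siRNA. The libraries with CXCL14 siRNA lay between 0.292 and 0.357 and those of the other groups at or below 0.108. An exact permutation test of 3 libraries against 3 cannot give a two-sided p below 0.1, so these ratios are descriptions.

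**Figure D4:**
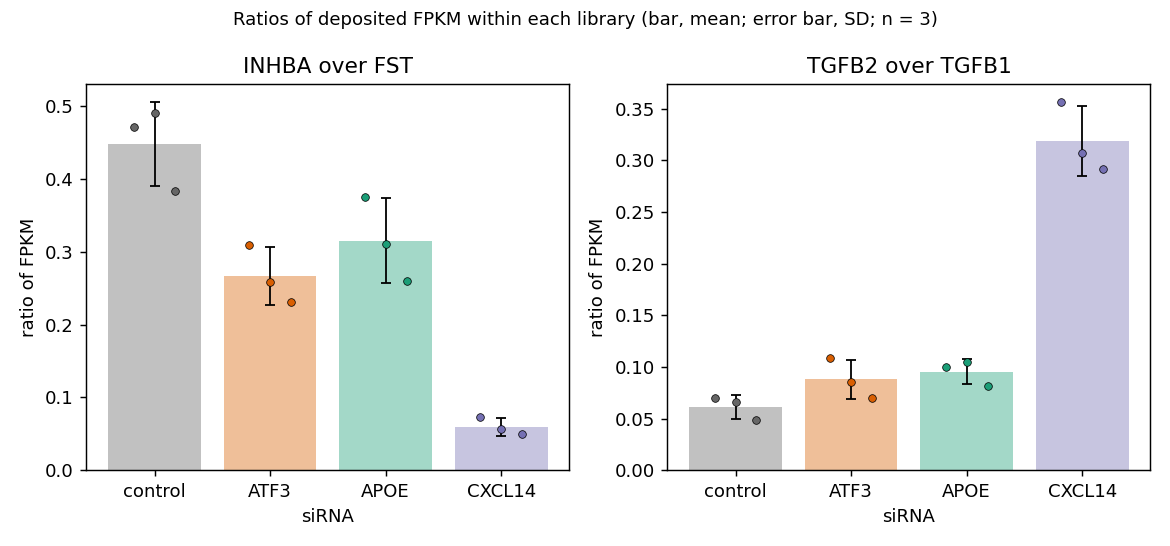
Ratio of deposited FPKM within each library (vertical axis, starting at 0) for INHBA over FST and TGFB2 over TGFB1, by siRNA group (horizontal axis), with points for libraries, bars for means and error bars for the SD of 3 libraries. With CXCL14 siRNA the first ratio is 0.0596 and the second 0.319.

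A further 94 genes in 7 lists around the pathway were examined, of which 72 were tested. With ATF3 siRNA 27 were called (37.5%; 13 higher, 14 lower), with APOE siRNA 44 (61.1%; 25 higher, 19 lower) and with CXCL14 siRNA 45 (62.5%; 17 higher, 28 lower), beside 20.4%, 44.8% and 55.8% of all genes. Their median log2 fold changes were -0.04, 0.06 and -0.12.

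Genes that store or activate latent TGF-beta were higher with APOE siRNA, where 7 of 10 tested rose and 0 fell, beside 22.3% of all genes called higher and 22.5% lower (list median 0.50; all genes 0.01). The latent TGF-beta binding proteins LTBP1 (0.65 ± 0.10), LTBP2 (0.72 ± 0.08), LTBP3 (0.54) and LTBP4 (0.36) rose, as did the integrin chains ITGB6 (0.64 ± 0.08) and ITGB8 (1.01 ± 0.14), which pair with the ITGAV chain and bind latent TGF-beta. The same list had 3 lower and 0 higher with ATF3 siRNA (9.14% and 11.2% of all genes): ITGB6 (-0.48 ± 0.08), FBN1 (-0.54 ± 0.12) and LTBP1 (-0.44 ± 0.11), the last not called without control replicate 2 (-0.37, adjusted p = 0.0525). With CXCL14 siRNA 6 of 10 were called, 5 lower and 1 higher, near the 55.8% of all genes. ITGB6 (-1.24 ± 0.08), ITGAV (-0.97 ± 0.12) and LTBP1 (-0.51 ± 0.11) were among those that fell, and FBN1, the microfibril protein to which latent complexes bind, rose by 2.30 ± 0.11.

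Other receptors and co-receptors were called lower in 5 of 10 tested genes and higher in 0 with ATF3 siRNA, beside 9.14% and 11.2% of all genes (list median -0.31). The 5 were the co-receptor TGFBR3 (-0.80 ± 0.21), the co-receptor CD109 (-0.32 ± 0.09) and the receptor genes ACVR1 (-0.46 ± 0.11), BMPR1A (-0.35 ± 0.08) and BMPR1B (-0.70). The TGFBR3 call was lost without control replicate 1 (-0.66, adjusted p = 0.0807) or ATF3 siRNA replicate 2 (-0.73, 0.061) or 3 (-0.62, 0.0592), and the CD109 call without control replicate 1 (-0.26, 0.0746) or ATF3 siRNA replicate 2 (-0.30, 0.0578). With APOE siRNA 3 of 10 rose and 3 fell (44.8% of all genes were called), among them ACVR1 (-1.24 ± 0.12), BMPR1B (-2.26 ± 0.28, from 2.74 ± 0.611 to 0.574 ± 0.112 CPM) and the activin receptor ACVR2A (0.70 ± 0.14). With CXCL14 siRNA 3 of 10 rose and 1 fell, a smaller share than the 55.8% of all genes, and TGFBR3 rose from 5.03 ± 1.04 to 15.0 ± 0.905 CPM (1.57 ± 0.18). Of 14 other ligands 6 were tested. With ATF3, APOE and CXCL14 siRNA 1, 2 and 1 of them were called (16.7%, 33.3% and 16.7%). Each share was below that of all genes (20.4%, 44.8% and 55.8%). BMP2 (21.7 ± 1.02 CPM in control) and GDF11 (14.1 ± 0.827) were above TGFB2 in CPM, and the other 12 were under 1 CPM in control. BMP2 was called with 0 of the 3 siRNAs. GDF11 was called with all 3 siRNAs (0.36 ± 0.10 with ATF3, -0.35 ± 0.11 with APOE and -1.25 ± 0.11 with CXCL14), and the activin subunit INHBE rose with APOE siRNA from 0.427 ± 0.158 to 1.21 ± 0.296 CPM. The GDF11 call with ATF3 siRNA was lost in 4 of 22 settings, among them without control replicate 2 (0.31, adjusted p = 0.0886) or ATF3 siRNA replicate 3 (0.30, 0.0778), and that with APOE siRNA without APOE siRNA replicate 1 (-0.27, 0.0731).

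Among the other Smads and their partners, 2 of 7 tested genes were called with ATF3 siRNA (28.6%, beside 20.4% of all genes). With APOE siRNA it was 1 of 7 (14.3%, below the 44.8% of all genes). SMAD5 was higher with ATF3 siRNA (0.48 ± 0.08) and APOE siRNA (0.58 ± 0.08). SMAD2, the other Smad of the TGF-beta and activin branch, rose with ATF3 siRNA (0.28 ± 0.07; not called by limma on log2 FPKM) and CXCL14 siRNA (0.38 ± 0.07), while SMAD3 fell in both. With CXCL14 siRNA 2 of 7 genes rose and 3 fell (71.4% called, beside 55.8% of all genes), including SMAD1 of the BMP branch (-0.97 ± 0.10) and ZFYVE9, which presents SMAD2 and SMAD3 to the receptor (-0.65 ± 0.07). Other inhibitors and feedback genes had 2 of 13 called with ATF3 siRNA (15.4%, below the 20.4% of all genes), 9 with APOE siRNA (69.2%, against 44.8%) and 7 with CXCL14 siRNA (53.8%, near the 55.8% of all genes). By direction these were, in that order, 1 higher and 1 lower, 4 higher and 5 lower, and 1 higher and 6 lower. With APOE siRNA the ubiquitin ligase genes SMURF1 (-0.57 ± 0.07), SMURF2 (-0.50 ± 0.06) and NEDD4L (-0.53 ± 0.07) fell, while SMAD7, whose product recruits SMURF proteins to the receptor, rose. With CXCL14 siRNA the corepressor gene SKIL, itself a TGF-beta target, fell by 1.31 ± 0.12. The 1 gene called higher there was GREM1 (1.74 ± 0.47). By limma on log2 of FPKM plus 1 its change was 0.077 and not called (adjusted p = 0.0599). A difference that small on this scale places GREM1 among genes of low FPKM.

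Genes known to be induced by TGF-beta in epithelial cells did not move together. With CXCL14 siRNA 19 of 22 tested were called (86.4%, beside 55.8% of all genes), 8 higher and 11 lower. HMGA2, a chromatin protein, fell by 1.59 ± 0.08. TAGLN, an actin-binding protein, went from 39.4 ± 3.79 to 209 ± 19.8 CPM (2.41 ± 0.09, adjusted p = 6.97e-12), and the cell-cycle inhibitor CDKN1A rose by 1.04 ± 0.06. With APOE siRNA 6 rose and 10 fell (72.7% called, beside 44.8%): ANGPTL4 fell by 2.27 ± 0.14, and COL7A1 (1.12 ± 0.09), CDKN1A (0.85 ± 0.06) and TAGLN (0.68 ± 0.09) rose. With ATF3 siRNA 6 rose and 5 fell (50% called, beside 20.4%), among them CDKN1A (0.52 ± 0.06), VIM (-0.83 ± 0.10) and COL4A1 (-0.46 ± 0.07).

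Genes induced by BMP, the sister branch, were called higher in 3 of 4 tested with ATF3 and with APOE siRNA, beside 11.2% and 22.3% of all genes, and 0 were called lower. ID3, an inhibitor of helix-loop-helix factors, was at 43.2 ± 4.11 CPM in control, 80.8 ± 4.86 with ATF3 siRNA, 113 ± 4.52 with APOE siRNA and 158 ± 7.26 with CXCL14 siRNA. Its paralogue ID1 was at 50.0 ± 6.87 CPM in control, 88.4 ± 18.7 with ATF3 siRNA and 83.9 ± 3.07 with APOE siRNA, but at 10.8 ± 1.5 with CXCL14 siRNA (-2.21 ± 0.15, adjusted p = 3.99e-09). The homeobox gene MSX2 rose with each siRNA, by 0.91 ± 0.17, 0.52 ± 0.18 and 1.26 ± 0.17 with ATF3, APOE and CXCL14 siRNA. The MSX2 call with APOE siRNA was lost without control replicate 2 (0.40, adjusted p = 0.119) or 3 (0.53, 0.0518) or APOE siRNA replicate 3 (0.34, 0.148).

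**Figure D5:**
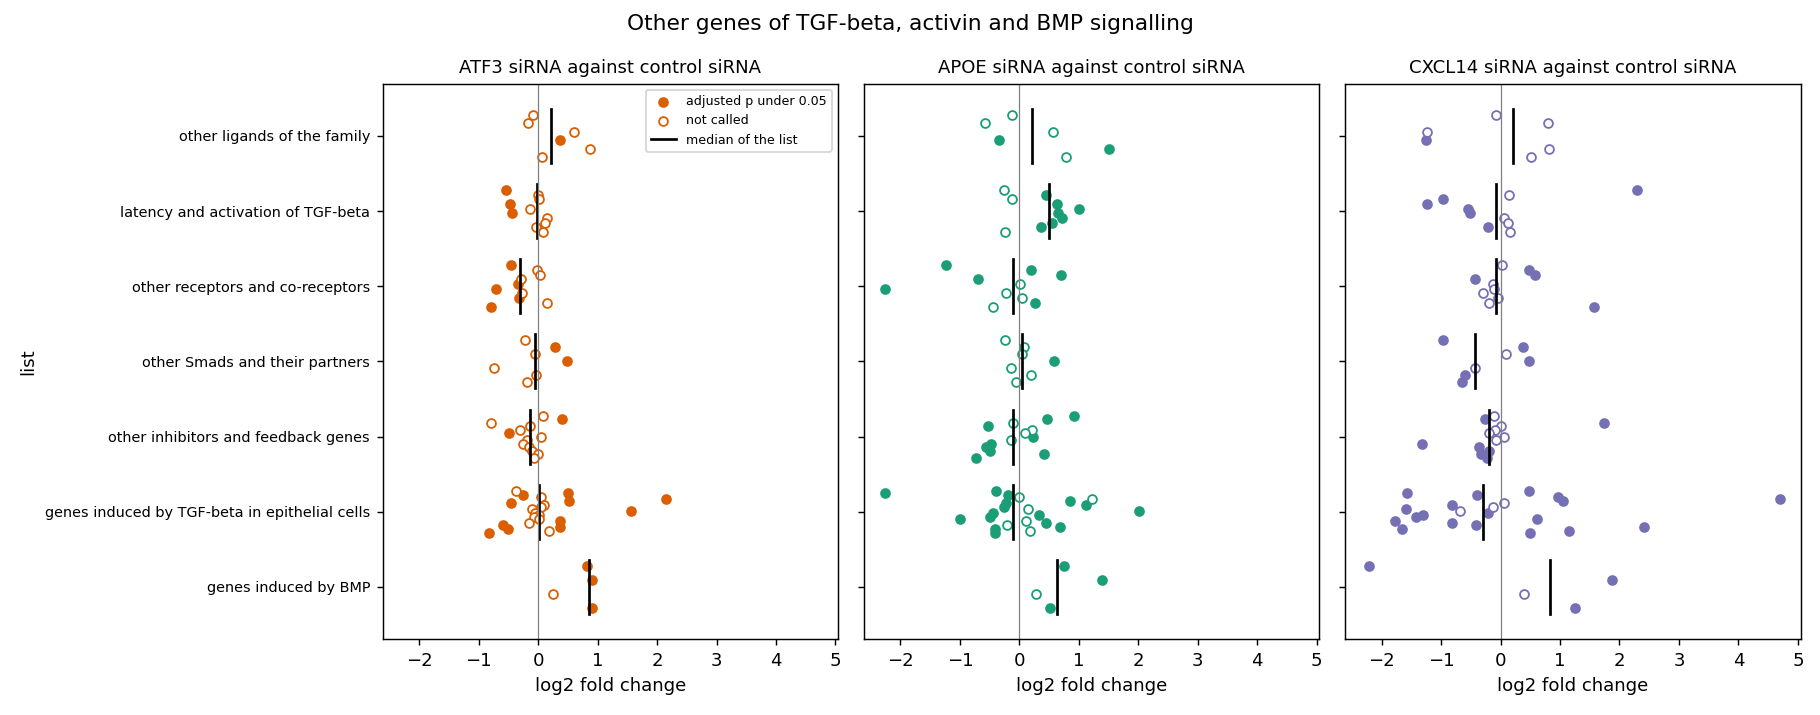
Log2 fold change against control siRNA (horizontal axis) of the tested genes of 7 pathway lists (vertical axis), in 1 panel per siRNA, filled where adjusted p was under 0.05, with a black bar at each list's median. The latency and activation list has its median at 0.50 with APOE siRNA, and the TGF-beta-induced list spreads to both sides of 0 in each panel.

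Across the 12 libraries, the genes whose log2 CPM followed each member most closely were named for the 8 members called with at least 2 siRNAs. The 12 points share groups, scaling and control libraries, so Pearson's r over them is a description. Among 10568 genes averaging 5 CPM or more, INHBA was followed by EDEM1 (r = 0.996), KIF3B and SEPT11, TGFB2 by MRPL27 (r = 0.994), AC024896.1 and LEPROT, and TGFBI by DCBLD1 (r = 0.991), AKR1C1 and FAM217B. THBS1 was followed by PTPN21 (r = 0.986), TMC6 and HS3ST1, TGFBR2 by ROR1 (r = 0.993), PROM2 and CTSC, and TGFBR1 by CNOT6 (r = 0.979), IL1A and SEC24B. SMAD3 was followed by AUTS2 (r = 0.979), TRIB1 and TTLL11, and SMAD7 by TENT4A (r = 0.968), SOX4 and PPP4R3A. Of the 45 pairs among the 10 genes, TGFB1 and TGFBR2 had the highest r at 0.93, and TGFB2 and SMAD3 the lowest at -0.82.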

How the data were processed

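Counts and FPKM per gene for 12 libraries were deposited as tables of the whole series. Per the submitters' processing notes, HISAT2 2.0.5, featureCounts 1.5.0-p3 and hg38 were used, and other settings, strand included, are not given in the sources used here. The deposited counts are whole reads per gene, and the deposited FPKM are proportional to count over gene length within each library. Columns were matched to samples by their labels. The 10 genes and all lists were chosen with earlier results of these data known.

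Counts were fitted with edgeR 4.0.16 in R 4.3.3 (filterByExpr, TMM, 1 mean per group, all 12 libraries, quasi-likelihood test). This kept 14920 genes with 99.9% of counts, and p-values were adjusted by Benjamini-Hochberg over them in each of 6 comparisons. There was no limit on fold change. Total counts ranged from 16225691 to 22246755, which sets the precision of low genes. Alternatives were other scalings and filters, DESeq2 1.42.0, limma 3.58.1 (voom, and log2 of FPKM plus 1 or 0.1), only the 2 groups compared, a replicate block, and leaving out each library. On simulated data for ATF3 siRNA against control (14650 genes), 59% of 1.5-fold and 81% of 2-fold changes were recovered, and 4.76% of calls were false. The simulation changed 100 genes at each fold, in 1 group and with independent libraries. In the data 3041 genes were called in that comparison, so these rates may not carry over.

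Named genes were the 10 members; from each of 7 lists up to 4 called genes with the smallest adjusted p per comparison with control; overlapping genes; the 3 genes most correlated with each member called at least 2 times against control; and the siRNA targets. LTBP3, LTBP4, BMPR1B with ATF3 siRNA and the collagen markers lie outside this rule and were added after their values were seen. 1 gene that the rule names is not reported here. The variance between 2 libraries of a group was 4.70 to 17.3 times that of counting noise, averaged over genes, so no pair agreed within sampling noise. Deviations of same-numbered libraries correlated above 0.1 in all 3 pairs only for APOE against CXCL14 siRNA (0.225, 0.104 and 0.234), and the block changed no call there among the 10 genes.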

Additional observations from a re-analysis of the deposited data

How the results depend on the processing

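The count of called genes among the 10 in each of 6 comparisons, and the total over the 7 pathway lists in each of 3, stayed within 1.5 times its reported value under all 22 alternatives. Of the 45 called differences of the 10 genes, 40 kept their call under all 22, and none changed sign. The 5 that lost it somewhere were FST with APOE siRNA against control and against CXCL14 siRNA, SMAD3 with ATF3 siRNA against APOE and against CXCL14 siRNA, and SMAD7 with CXCL14 siRNA against control. Of 65 called differences of named pathway genes, 11 lost the call somewhere and none changed sign. Counts of single lists can move further, as GDF11, the only other ligand called with ATF3 siRNA, lost its call in 4 settings.

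Sign changes occurred only in values that had not passed the test, and the cause was not tested. Scaling by library size alone gave 0.022 for FST with CXCL14 siRNA against control (-0.040 as reported) and -0.066 for SMAD7 with ATF3 against CXCL14 siRNA (0.037 as reported). Leaving out 1 library gave a range of -0.12 to 0.076 for that FST value, -0.11 to 0.18 for that SMAD7 value, -0.20 to 0.010 for TGFB1 with ATF3 against APOE siRNA, and -0.023 to 0.18 for TGFB1 with ATF3 siRNA against control.

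With library size alone the median of all genes moved to -0.10 in ATF3 against CXCL14 siRNA and -0.11 in APOE against CXCL14 siRNA. The share of calls that were higher went from 52.9% to 41.5% and from 52.0% to 39.6% there, and from 55.2% to 44.0% in ATF3 siRNA against control.

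With the replicate number as a block, the count of called genes among the 10 went from 6 to 7 (ATF3 siRNA against control), 6 to 8 (APOE siRNA against control) and 6 to 8 (ATF3 against APOE siRNA), and stayed at 9, 8 and 10 in the others. The pathway counts went from 27 to 32, 44 to 47 and 45 to 49. The labels do not say what a number marks. In 5 comparisons the correlations of same-numbered libraries (-0.02 to 0.23) did not all exceed 0.1, although 11 of 12 libraries correlated best with their own number, a hint of pairing from the data. Depth limits the CXCL14 values, below the level of 3 counts in its own knockdown, and those of other low genes such as INHBE.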
